A study of Arabidopsis thaliana with 6 samples.

Results

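DFR, UF3GT, AT5MAT and AT4G14090 are 4 Arabidopsis thaliana genes of anthocyanin synthesis, and each was measured by 1 probe set annotated to that gene and no other. They are 4 of the 22746 probe sets left on the array once control probe sets were set aside. Whole light-grown seedlings, 10 days old, were compared on 6 arrays: 2 of wild type, 2 of seedlings overexpressing the rice cDNA OsTOP6A3 and 2 of seedlings overexpressing the rice cDNA OsTOP6B. These cDNAs encode the A and B subunits of topoisomerase VI, which cuts both strands of a DNA duplex and moves a second duplex across the gap. All seedlings grew in continuous light on agar medium with sucrose. The labels name Columbia as the ecotype on 5 arrays and leave it out for wild-type replicate 1. The overexpressor arrays carry 1 name per transgene, OEA3L5 and OETOP6B, so transgene and line cannot be told apart, and the promoter that drives it is not given in the sources used here. No vector control was analysed here, and the transgenes themselves were not measured.

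Anthocyanins are the red to purple pigments of leaves, stems and flowers, and they are made at the end of the flavonoid pathway. Dihydroflavonol reductase turns dihydroflavonols into the precursors of anthocyanidins, and glycosyltransferases and acyltransferases then attach sugars and acids that make the pigments stable in the vacuole. In Arabidopsis seedlings, light and sucrose are known to raise the late genes of this branch, whereas flavonol glycosides are made from the same intermediates by a separate branch.

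The pattern over the 4 genes was mixed and weak. UF3GT was 1.80-fold higher in OsTOP6A3 overexpressors and 1.49-fold higher in OsTOP6B overexpressors without passing the test. Fold sizes between groups, here and below, are ratios of normalized intensity + 16, not of intensity itself. The added constant shrinks the differences of dim probe sets such as that of UF3GT. DFR lay close to wild type in OsTOP6A3 overexpressors and was high on 1 of the 2 OsTOP6B arrays. AT5MAT was low on both OsTOP6A3 arrays, and AT4G14090 varied as much between replicates as between groups. AT5MAT and AT4G14090 were too dim to be tested. In the neighbouring flavonol branch, the glycosyltransferase gene UGT78D1 rose 1.77-fold with OsTOP6A3 and 1.48-fold with OsTOP6B. With 16 added to intensities before taking logs, these sizes were close to those of UF3GT, with a smaller error. That likeness depended on the added constant. With 1 added, the OsTOP6A3 log2 difference was 1.76 for UF3GT and 0.88 for UGT78D1. With 64 added, it was 0.34 for UF3GT and 0.69 for UGT78D1. The OsTOP6A3 call of UGT78D1 was lost without wild-type replicate 1 or either OsTOP6A3 array. Its OsTOP6B call was lost without the filter, on the deposited scale and in 5 of 6 fits with an array left out.

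Levels below are quantile-normalized values of log2(intensity + 16), on which an intensity of 0 reads 4. Testing was limited to probe sets with a mean level of at least 4.97, the 25th percentile. DFR had a mean of 5.43 and UF3GT one of 5.09, while AT4G14090 with 4.73 and AT5MAT with 4.71 fell below. The wild-type mean of UF3GT, 4.61, was itself under that limit, so it passed through the overexpressor arrays. Errors are standard errors of limma (n = 2 arrays per group), and adjusted p-values are limma's with the Benjamini-Hochberg method over 17059 probe sets. In tissue measured in bulk, fewer cells that make a transcript and less of it per cell cannot be told apart.

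The arrays differed in brightness, with medians of 66.2 to 103.5 in deposited intensity, the highest being OsTOP6B replicate 1. That array also read 315 for the 25S ribosomal RNA control, against 23.9 to 66.0 on the other 5. The ratio of 3′ to 5′ signal for the control gene GAPDH ran from 1.01 on OsTOP6B replicate 2 to 1.61 on wild-type replicate 1. All 7 photosynthetic shoot markers and all 3 root markers of the fixed list were measured and none was listed at 0. Their summed deposited intensities were 32401 and 35439 for shoot and 5603 and 6514 for root in wild type. In OsTOP6A3 overexpressors they were 39953 and 39497 for shoot and 8530 and 8810 for root, and in OsTOP6B overexpressors 34189 and 28099 for shoot and 8677 and 5450 for root. After normalization 1 of the 7 shoot markers rose and 1 fell in each line: LHCB4.2 was higher by 0.72 and 0.79 and PSAN changed by -0.71 and -0.83 for OsTOP6A3 and OsTOP6B. The other 5 did not pass, and 5 of 7 lay wholly below wild type in each line. Among all tested probe sets 32.4% had both OsTOP6A3 arrays below wild type, and the share for OsTOP6B is not given here. These counts of 5 of 7 were not tested and are no result about shoot tissue. Of the 3 root markers, EXPA7 rose 2.35-fold and 3.32-fold, EXPA18 rose 1.75-fold with OsTOP6B, and PYK10 did not pass. Of 6 seed markers only BAN had a probe set annotated to exactly 1 gene, at 1.6 to 4.8 in deposited intensity. How far brightness, ribosomal RNA or tissue makeup enter the values below was not tested.

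**Figure D1:**
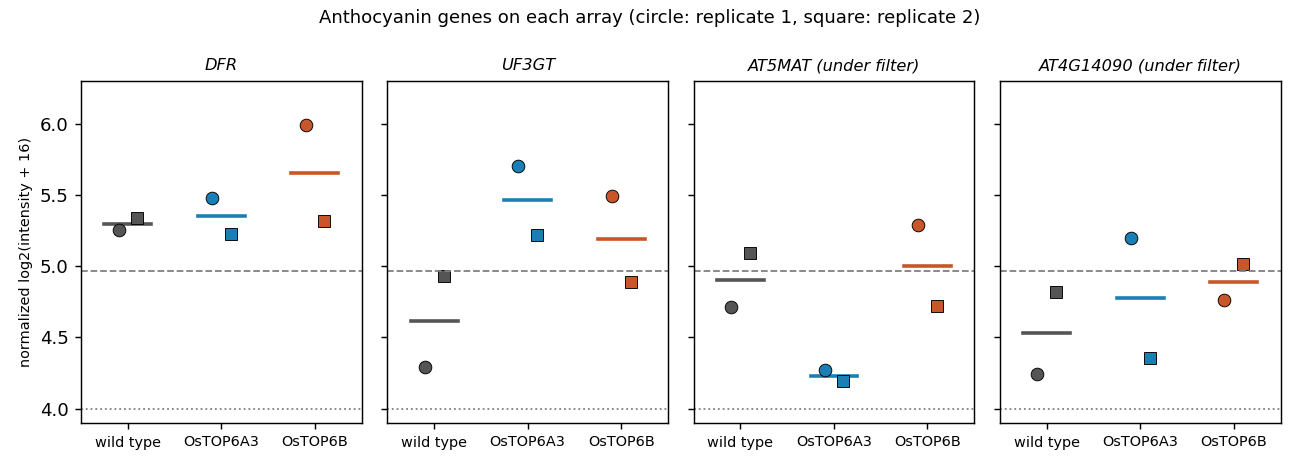
Normalized log2(intensity + 16) of DFR, UF3GT, AT5MAT and AT4G14090 (y axis) on the 6 arrays by group (x axis); points are single arrays, short lines group means of 2 arrays, the dashed line the filter at 4.97 and the dotted line the value of an intensity of 0. Only UF3GT in OsTOP6A3 overexpressors lies wholly above wild type, and only AT5MAT in OsTOP6A3 overexpressors wholly below it.

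DFR encodes dihydroflavonol 4-reductase, the first enzyme committed to anthocyanins and proanthocyanidins. Its deposited intensities were 19.4 and 20.7 in wild type, 33.3 and 23.1 on the OsTOP6A3 arrays, and 60.2 and 19.8 on the OsTOP6B arrays. After normalization the levels were 5.25 and 5.34 in wild type, 5.48 and 5.23 in OsTOP6A3, and 5.99 and 5.32 in OsTOP6B. Thus 5 of the 6 arrays lay close together, OsTOP6B replicate 1 stood above them, and neither overexpressor was clear of the wild-type range.

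The OsTOP6A3 difference of DFR from wild type was 0.06 ± 0.22 on the log2 scale, with a 95% interval from -0.45 to 0.57 and a limma adjusted p of 0.895. The OsTOP6B difference was 0.36 ± 0.22, with an interval from -0.15 to 0.87 and a limma adjusted p of 0.305. Without OsTOP6B replicate 1 that difference was 0.022, and without OsTOP6B replicate 2 it was 0.71 with a limma adjusted p of 0.0490, from a fit in which the single OsTOP6B array is assumed to vary like the other groups, the lowest of its alternatives, which reached 0.940. The OsTOP6B value of DFR therefore rests on 1 array, the one with the brightest median and the high ribosomal RNA control. Neither interval reaches a difference of 1 in either direction on the scale of log2(intensity + 16). A 2-fold change in the intensity of a dim probe set is less than 1 on that scale. The intervals alone therefore do not leave out a 2-fold change in intensity. With 1 in place of 16 as the added constant, the OsTOP6B difference was 0.52 ± 0.33, and with 64 it was 0.18 ± 0.12.

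UF3GT encodes a UDP-glycosyltransferase, named in the gene table as a flavonoid 3-O-glucosyltransferase and as UGT79B1, that acts on the sugars of anthocyanins. Its deposited intensities were 3.5 and 12.3 in wild type, 42.1 and 22.9 on the OsTOP6A3 arrays, and 36.6 and 11.7 on the OsTOP6B arrays. The normalized levels were 4.29 and 4.93 in wild type, 5.70 and 5.22 in OsTOP6A3, and 5.49 and 4.89 in OsTOP6B. Both OsTOP6A3 arrays were above both wild-type arrays, whereas OsTOP6B replicate 2 lay between the wild-type arrays.

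For OsTOP6A3 the difference of UF3GT from wild type was 0.85 ± 0.28, with a 95% interval from 0.19 to 1.51, an unadjusted p of 0.0178 and a limma adjusted p of 0.106. For OsTOP6B it was 0.58 ± 0.28, with an interval from -0.08 to 1.23 and a limma adjusted p of 0.209. The mean of both overexpressors exceeded wild type by 0.71 ± 0.24 with a limma adjusted p of 0.0862, and 3 of 4 overexpressor arrays lay above both wild-type arrays. None of these passed the threshold of 0.05.

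Single arrays moved these values. Without wild-type replicate 1, the lowest of the 6 for UF3GT, the OsTOP6A3 difference was 0.54 (limma adjusted p of 0.400) and the OsTOP6B difference 0.26 (0.658). Without wild-type replicate 2 they were 1.19 (0.0783) and 0.91 (0.125), and without OsTOP6B replicate 1 the OsTOP6B difference was 0.27 (0.595). The deposited scale, on which overexpressor arrays are brighter as a whole and the median of all OsTOP6A3 differences was 0.34, gave UF3GT a difference of 1.02 with a limma adjusted p of 0.00848, the lowest of alternatives that reached 0.400. With other pseudocounts the OsTOP6A3 difference ran from 0.34 with 64 to 1.76 with 1, since the wild-type signal is close to 0.

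AT5MAT encodes a malonyltransferase that acts on the sugar at position 5 of anthocyanins. Its deposited intensities were 9.4 and 15.2 in wild type, 3.6 and 2.4 on the OsTOP6A3 arrays, and 28.6 and 8.9 on the OsTOP6B arrays. The normalized levels were 4.71 and 5.09 in wild type, 4.27 and 4.19 in OsTOP6A3, and 5.29 and 4.72 in OsTOP6B. Both OsTOP6A3 arrays were the lowest of the 6, close to the value of an intensity of 0, and the highest was again OsTOP6B replicate 1.

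The OsTOP6A3 level of AT5MAT differed from wild type by -0.67 and from OsTOP6B by -0.77 on the log2 scale, differences that lay outside the tested set. In the alternative without the filter, the limma adjusted p was 0.167 against wild type, with a 95% interval from -1.21 to -0.13, and 0.758 against OsTOP6B. With 2 arrays against 2, the exact two-sided permutation test cannot give a p below 0.333, which was its value in both comparisons. The OsTOP6B difference from wild type was 0.10, and it was -0.17 without OsTOP6B replicate 1. At these intensities the size of the OsTOP6A3 difference depends on the pseudocount, from -0.23 with 64 to -1.96 with 1.

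AT4G14090 is listed by its locus code alone, without a gene name. Its deposited intensities were 2.8 and 10.4 in wild type, 24.0 and 4.8 on the OsTOP6A3 arrays, and 13.5 and 14.0 on the OsTOP6B arrays. The normalized levels were 4.25 and 4.82 in wild type, 5.20 and 4.35 in OsTOP6A3, and 4.77 and 5.02 in OsTOP6B. The OsTOP6A3 replicates enclosed the wild-type replicate 2 value and both OsTOP6B values, and no group was clear of another.

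Its differences from wild type were 0.24 for OsTOP6A3 and 0.36 for OsTOP6B. Without the filter the limma adjusted p was 0.726 and 0.548, and the 95% intervals ran from -0.53 to 1.02 and from -0.42 to 1.13. Leaving out OsTOP6A3 replicate 1 turned the OsTOP6A3 value to -0.18, leaving out OsTOP6A3 replicate 2 gave 0.66, and leaving out wild-type replicate 1 gave -0.045, so its direction turned without either of 2 arrays. The OsTOP6B value ran from 0.072 without wild-type replicate 1 to 0.66 without wild-type replicate 2. Neither interval leaves out a 2-fold rise.

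Of the 4 genes, 2 were tested and 0 were called in any comparison. Over all tested probe sets 9.68% were called for OsTOP6A3, 14.9% for OsTOP6B and 17.1% for the mean of both. At an unadjusted p under 0.05, UF3GT but not DFR passed for OsTOP6A3 and for the mean of both, as did 25.9% and 32.7% of all tested probe sets, so 1 of 2 is no result about these genes. Without the filter, AT5MAT had unadjusted limma p of 0.0234 for OsTOP6A3 against wild type and 0.0130 against OsTOP6B. In that fit 4653 and 1474 of 22746 probe sets were under 0.05 in these comparisons. Groups that did not overlap were common on this array: 28.6% of tested probe sets had both OsTOP6A3 arrays above wild type, as UF3GT did, and 32.4% had both below, as AT5MAT did. The median log2 difference over all tested probe sets was -0.02 for each line. Both comparisons with wild type use the same wild-type arrays, so the low wild-type replicate 1 value of UF3GT enters both.

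Between the overexpressors, the difference of OsTOP6A3 minus OsTOP6B was -0.30 ± 0.22 for DFR (limma adjusted p of 0.775) and 0.27 ± 0.28 for UF3GT (0.835). It was -0.12 for AT4G14090 and -0.77 for AT5MAT, neither of them tested. The 95% intervals ran from -0.81 to 0.21 for DFR and from -0.38 to 0.93 for UF3GT. In limma 0 of 17059 probe sets, or 0%, passed between the lines, and 1235 had an unadjusted p under 0.05. AT5MAT was the 1 gene of the 4 whose lines did not overlap, a state found in 19.2% of tested probe sets in the same direction.

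**Figure D2:**
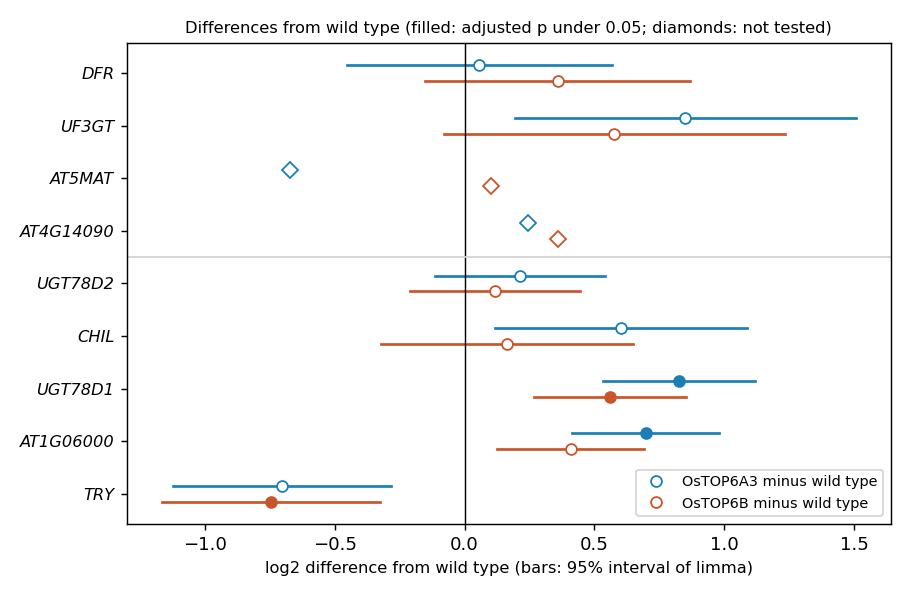
Log2 difference from wild type (x axis) of the anthocyanin genes above the grey line and of 5 other flavonoid genes below it (y axis), for OsTOP6A3 and OsTOP6B overexpressors; bars are 95% intervals of limma, filled circles passed at an adjusted p under 0.05, and diamonds were not tested. UGT78D1 is filled in both lines, AT1G06000 for OsTOP6A3 and TRY for OsTOP6B, while the UF3GT interval for OsTOP6A3 runs from 0.19 to 1.51 and its circle is open.

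Replicate arrays lay far apart for most of these genes. For UF3GT the replicates differed by 0.64 in wild type, 0.48 in OsTOP6A3 and 0.61 in OsTOP6B on the log2 scale. Among all tested probe sets the median gap was 0.14, 0.12 and 0.19 in the same groups, and 96.9%, 95.8% and 94.5% of them had a smaller gap than UF3GT. Against the 1364 tested probe sets whose mean lay within 0.25 of its own, 86.4%, 84.2% and 83.0% had a smaller gap. UF3GT was thus more variable between replicates than most probe sets, also at a like level.

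DFR had a gap of 0.08 in wild type, 0.25 in OsTOP6A3 and 0.67 in OsTOP6B. The OsTOP6B gap exceeded that of 91.6% of the 1663 tested probe sets of like level, whereas the wild-type gap exceeded that of 17.6%. AT4G14090 had its widest gap, 0.84, between the OsTOP6A3 arrays, where the deposited values differed 5.00-fold. AT5MAT had gaps of 0.38, 0.07 and 0.56. Wild-type replicate 2 read higher than replicate 1 for all 4 genes, and OsTOP6A3 replicate 1 read higher than replicate 2 for all 4. OsTOP6B replicate 1 read higher for all but AT4G14090. The share of other probe sets with the same directions was not computed, so these counts are no result about the 4 genes.

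**Figure D3:**
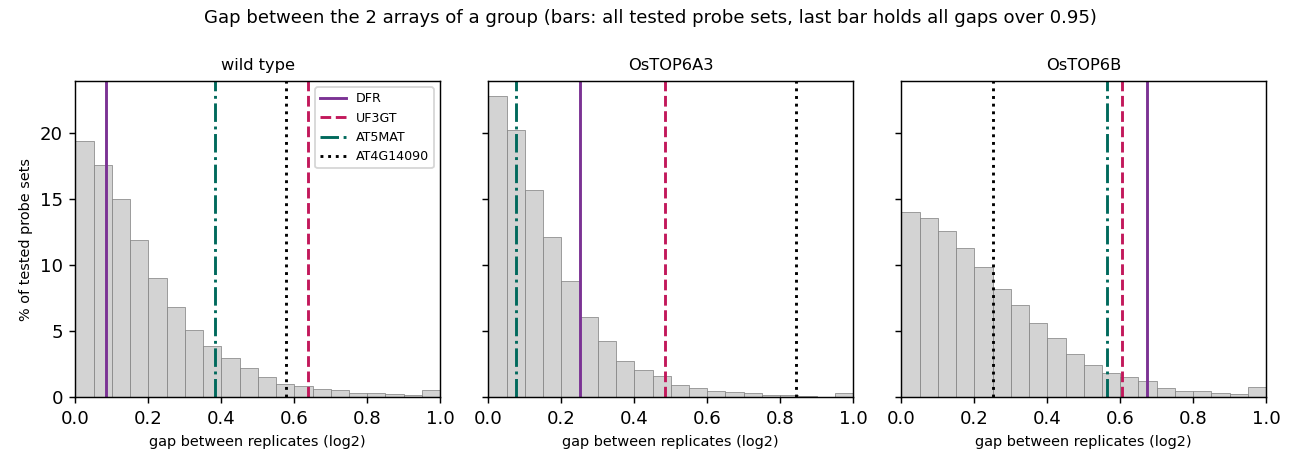
Share of the tested probe sets (y axis, percent) by the gap between the 2 arrays of a group (x axis, log2 units), with the gaps of the anthocyanin genes as vertical lines. UF3GT lies in the right tail in each group, at 0.64, 0.48 and 0.61, and DFR only in OsTOP6B, at 0.67.

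The 4 genes did not follow one profile over the arrays. After each was centred on its own mean, the root-mean-square difference between pairs ran from 0.32 for DFR and AT5MAT to 0.65 for UF3GT and AT5MAT. The centred values about 0 had a root-mean-square size of 0.26 for DFR and 0.46 for UF3GT. DFR and AT5MAT shared their peak on OsTOP6B replicate 1, at 0.56 and 0.57 above their means. UF3GT and AT4G14090 shared theirs on OsTOP6A3 replicate 1, at 0.62 and 0.46, and their lowest value on wild-type replicate 1, at -0.79 and -0.49.

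Among 9433 other tested probe sets with 1 gene, those nearest to UF3GT over the 6 arrays were AT1G57590, AT3G26760 and AT1G45170, at root-mean-square differences of 0.08, 0.09 and 0.09. The nearest to DFR were ATPMEPCRB, a pectin methylesterase gene, at 0.09, AT4G36680 at 0.09 and the plastid-encoded ribosomal protein gene rps2 at 0.10. A flat profile such as that of DFR has many near neighbours: 16.6% of the probe sets lay within 0.25 of it, against 1.35% for UF3GT. These distances describe 6 arrays and were not tested.

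**Figure D4:**
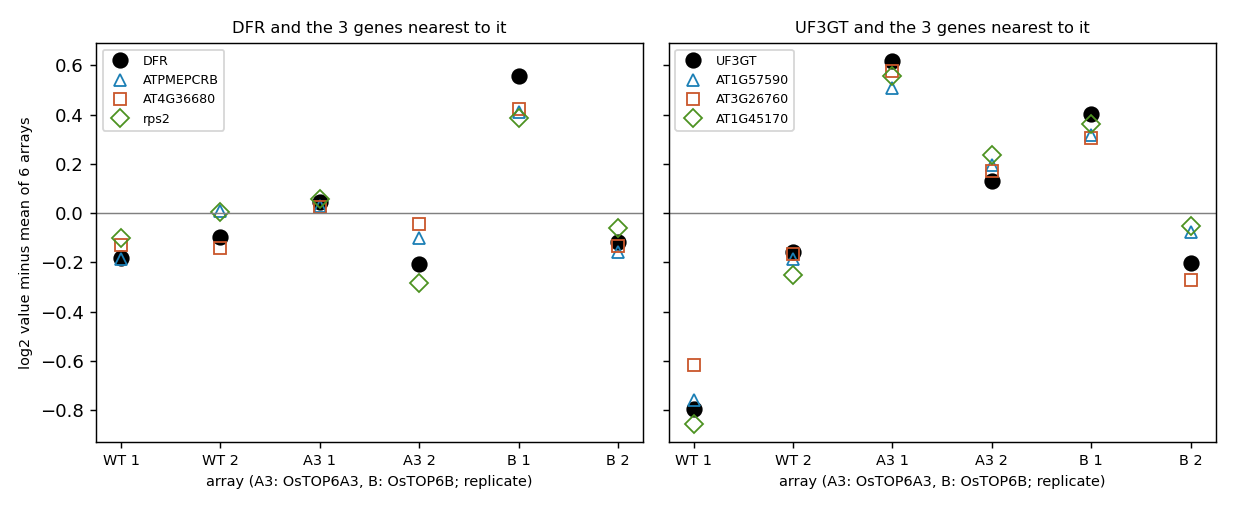
Log2 values of DFR (left) and UF3GT (right) and of the 3 genes nearest to each, minus the mean of the 6 arrays (y axis), on each array (x axis). The DFR set peaks on OsTOP6B replicate 1, with DFR at 0.56, and the UF3GT set is lowest on wild-type replicate 1, with UF3GT at -0.79.

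The wider flavonoid pathway was described from a list of 60 genes, of which 11 had a probe set with exactly 1 gene and 7 were tested, DFR and UF3GT among them. The general phenylpropanoid genes (9 in the list) and the positive regulators (17) had no such probe set and were not analysed here, so the light- and sucrose-responsive MYB and bHLH activators of DFR have no value beside it. Of the 5 tested genes other than DFR and UF3GT, 2 rose and 0 fell with OsTOP6A3, against 5.52% and 4.17% of all tested probe sets. With OsTOP6B 1 rose and 1 fell, against 7.91% and 6.98%. The median log2 difference over these 5 was 0.60 for OsTOP6A3 and 0.16 for OsTOP6B, beside -0.02 over all tested probe sets for each line. The 5 have mixed roles and include the repressor TRY, which was lower in both lines. These counts and medians were not tested and are no result about the pathway.

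UGT78D1, a flavonol 3-O-rhamnosyltransferase gene, showed the clearest difference in the list. Its levels were 7.55 and 7.59 in wild type, 8.40 and 8.39 in OsTOP6A3, and 8.22 and 8.04 in OsTOP6B. All 4 overexpressor arrays were above both wild-type arrays. Over all tested probe sets 19.7% had the 4 overexpressor arrays above wild type and 22.6% had them below. UGT78D1 rose by 0.83 ± 0.13 with OsTOP6A3, or 1.77-fold (limma adjusted p of 0.00722), and by 0.56 ± 0.13 with OsTOP6B, or 1.48-fold (0.0254). The difference between the lines, 0.26 ± 0.13, did not pass (limma adjusted p of 0.678). The OsTOP6A3 call was lost without wild-type replicate 1 (0.0510) or either OsTOP6A3 array (0.0615 and 0.0528), and the OsTOP6B call on the deposited scale (0.0552), without the filter (0.0503) or without any one array other than OsTOP6B replicate 2 (0.0547 to 0.115), while the sizes stayed between 0.47 and 0.83 in these fits.

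AT1G06000, placed with the flavonol glycosylation genes in the list, is known here by its locus code alone. Its levels were 8.67 and 8.58 in wild type, 9.37 and 9.27 in OsTOP6A3, and 9.04 and 9.01 in OsTOP6B. It rose by 0.70 ± 0.12 with OsTOP6A3, or 1.62-fold (limma adjusted p of 0.0126), a call lost without any one of the wild-type or OsTOP6A3 arrays (0.0584 to 0.114). The OsTOP6B difference was 0.41 ± 0.12 and did not pass (limma adjusted p of 0.0619), though all 4 overexpressor arrays lay above wild type. It passed with a pseudocount of 64 (0.0243), with the filter at the median (0.0309) and with an intensity trend (0.0237). The remaining glycosylation gene, UGT78D3, had deposited intensities of 2.2 to 9.7 and was not tested.

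Upstream of the branch point, CHIL, which encodes a chalcone isomerase-like protein that aids chalcone synthesis, had levels of 8.62 and 8.89 in wild type, 9.51 and 9.22 in OsTOP6A3, and 9.20 and 8.65 in OsTOP6B. Both OsTOP6A3 arrays lay above wild type, and OsTOP6B replicate 2 lay between the wild-type arrays, as it did for UF3GT. The differences were 0.60 ± 0.21 for OsTOP6A3 (limma adjusted p of 0.118) and 0.16 ± 0.21 for OsTOP6B (0.636), and neither passed. The OsTOP6A3 value of CHIL passed with a pseudocount of 64 (0.0432), with an intensity trend (0.0411) and on the deposited scale (0.0102).

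UGT78D2, which encodes a 3-O-glucosyltransferase that works on both flavonols and anthocyanidins, had levels of 8.57 and 8.67 in wild type, 8.98 and 8.68 in OsTOP6A3, and 8.74 and 8.73 in OsTOP6B. Its differences were 0.22 ± 0.14 and 0.12 ± 0.14, with limma adjusted p of 0.381 and 0.616. Every overexpressor array was above wild type, although OsTOP6A3 replicate 2 was so only narrowly. The 95% intervals ran from -0.11 to 0.54 and from -0.21 to 0.44. They overlap those of UGT78D1 in the same comparisons, from 0.53 to 1.12 and from 0.27 to 0.85. A difference between these genes was not tested.

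TRY is a small MYB repressor of trichome fate that competes with the activators shared by trichome and anthocyanin control. Of 8 repressors in the list, it alone had a probe set annotated to exactly 1 gene. Its levels were 5.83 and 5.53 in wild type, 5.19 and 4.77 in OsTOP6A3, and 5.00 and 4.87 in OsTOP6B, with every overexpressor array below both wild-type arrays. It fell with OsTOP6B by 0.75 ± 0.18 on the log2 scale, or 1.68-fold (limma adjusted p of 0.0329). Its OsTOP6B mean, 4.93, was under the filter limit and its wild-type mean was 5.68, so TRY passed the filter through wild type. With OsTOP6A3 the difference was -0.70 ± 0.18 and did not pass (0.0507). The OsTOP6B call was lost on the deposited scale (-0.57, 0.226), with a pseudocount of 1 (0.0612), without the filter (0.0718), with an intensity trend (0.0531) and without any one of the wild-type or OsTOP6B arrays (0.0544 to 0.158), and with OsTOP6A3 TRY passed with the replicate block (0.0279) and with median scaling (0.0461). BAN, which encodes anthocyanidin reductase of the proanthocyanidin branch in the seed coat, was under the filter in all groups, with levels of 4.12 to 4.44.

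**Figure D5:**
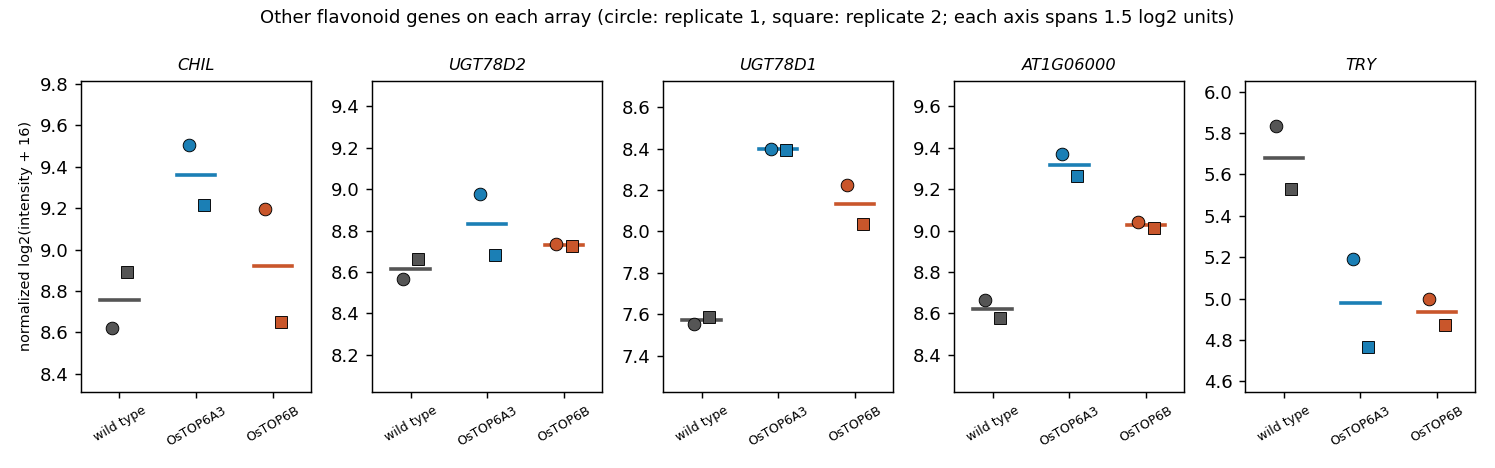
Normalized log2(intensity + 16) (y axis, each spanning 1.5 units) of CHIL, UGT78D2, UGT78D1, AT1G06000 and TRY on the 6 arrays by group (x axis), with points for arrays and short lines for group means. UGT78D1 and AT1G06000 lie above wild type on all 4 overexpressor arrays, and TRY lies below it on all 4.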

How the data were processed

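Total RNA of seedlings was biotin-labelled and measured on 1-colour arrays, per the labels' protocols. The deposited values are 1 linear intensity per probe set and array. How the authors summarised probes, and whether they scaled the arrays, is not stated in the labels. All 6 columns were matched to arrays by name. The quartiles of the deposited columns differed by up to 0.54 after log2(intensity + 16), and the columns were quantile normalized. A pseudocount shrinks the differences of dim probe sets. Of 22810 probe sets, 64 controls were set aside, and 17059 reached the 25th percentile of the mean and were tested. Exactly 1 gene was named for 13513 probe sets, several for 503 and none for 8730, from the probe table of the array type and gene names of assembly TAIR10.1.

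R 4.3.3 with limma 3.58.1 (lmFit, eBayes) fitted a mean per group over all 6 arrays, giving 3 residual and 4.61 prior degrees of freedom, a two-sided test, and Benjamini-Hochberg adjustment over the tested probe sets of each of 4 contrasts. A call is an adjusted p under 0.05. The fit was tested on simulated data with independent normal noise. There 6.36% to 7.58% of calls were false over the 4 contrasts, somewhat more than the adjusted p threshold of 0.05 allows. The labels call the arrays of a group biological replicates, and no more is said of their origin. The number of arrays limits the precision. The members, the wider list and the tests were chosen with earlier results of these data known. Named were all members, every called gene of the wider list, up to 4 further tested genes per role, and the 3 nearest profiles per tested member. Results were recomputed with pseudocounts of 1 and 64, on the deposited scale, with median scaling, without the filter, with a filter at the median, with an intensity trend and robust prior, with replicate number as a block, and without each array. Those for the other flavonoid genes were added after seeing the data.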

Additional observations from a re-analysis of the deposited data

How the results depend on the processing

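UF3GT passed on the deposited scale for OsTOP6A3 (1.02, limma adjusted p of 0.00848) and for the mean of both (0.86, 0.00859), which are contrasts of the same fit. DFR had 0.71 for OsTOP6B without OsTOP6B replicate 2, where 1 OsTOP6B array remained and was assumed to vary like the other groups. The same-number deviations of replicates correlated between groups at -0.05 to 0.02 across probe sets. The labels give no block, and a shared origin of same-number arrays was not tested. With the replicate block UF3GT had 0.85 for OsTOP6A3 (limma adjusted p of 0.125) and 0.58 for OsTOP6B (0.227), DFR had 0.06 (0.882) and 0.36 (0.259), and the calls were 1452 and 2161 over the array. Leaving out 1 array each, DFR ran from -0.067 (without OsTOP6A3 replicate 1) to 0.18 for OsTOP6A3, from 0.022 to 0.71 for OsTOP6B, and from -0.65 to 0.034 (without OsTOP6B replicate 1) between the lines. UF3GT ran from 0.54 to 1.19, from 0.26 to 0.91, and from -0.032 (without OsTOP6B replicate 2) to 0.56. It could not be fitted without OsTOP6A3 replicate 1, since its mean then fell under the filter, nor could DFR, UF3GT or TRY with the filter at the median. AT5MAT ran from -0.88 to -0.49 for OsTOP6A3, from -0.17 to 0.39 for OsTOP6B and from -1.08 to -0.48 between the lines. AT4G14090 ran from -0.18 to 0.66 for OsTOP6A3 and from 0.072 to 0.66 for OsTOP6B. With a pseudocount of 1 AT5MAT had -1.96 for OsTOP6A3, -2.14 between the lines and -0.89 for the mean of both, and AT4G14090 had 1.01 for OsTOP6B and 0.80 for the mean of both. With 64 AT5MAT had -0.23 for OsTOP6A3 and -0.27 between the lines. Signs turned for CHIL with OsTOP6B without OsTOP6B replicate 1 (-0.11, range to 0.44), and between the lines for UGT78D2 (-0.048, range to 0.25) and TRY (-0.16) without OsTOP6A3 replicate 1 and for TRY without OsTOP6B replicate 2 (-0.019). Over the array, 1652 probe sets were called for OsTOP6A3, and this became 1100 with a pseudocount of 1, 1002 without the filter and 560 to 2017 with an array left out. For OsTOP6B 2540 became 1460 on the deposited scale, 1608 without the filter and 1054 to 2210. For the mean of both, 2924 became 1149 to 3048. Between the lines 0 became 5 on the deposited scale, 1 with a pseudocount of 64 and 1 with an intensity trend, and stayed 0 with any array left out. On the deposited scale 92.1% of OsTOP6A3 calls and 84.5% of OsTOP6B calls were rises, against 57.0% and 53.1%. The cause of these moves was not tested.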
